A study of Homo sapiens with 6 samples.

Results

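The genes of the cytosolic ribosomal proteins were examined in the gastric cancer line MKN-74, an established human line of epithelial-like cells, with and without lentiviral HOXD9. Members were the protein-coding genes of the gene table whose symbol is RPL or RPS with a number, RPLP0 to RPLP2, or RPSA, within the limit given with the processing. These were 80 of 12385 genes, 48 of the large and 32 of the small subunit, and 11228 of the 12385 genes were protein-coding. LV-HOXD9 cells carried a lentivirus expressing HOXD9, a homeobox transcription factor, and LV-Vector cells, with the genotype given as WT, carried the empty virus. Both were stable pools selected with 10 μg/ml puromycin for over 14 days, and the lentiviral backbone, which has a ubiquitin (Ubi) promoter, a FLAG tag and a puromycin marker, also encodes a green fluorescent protein. Stranded libraries of total RNA were sequenced from 3 samples per group, and the question of the comparison was which RNAs differ in level when HOXD9 is added. The labels call the samples biological replicates but do not say whether the transductions were separate. The p-values below therefore measure only the spread among these 6 samples.

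Each ribosome holds 1 copy of nearly every ribosomal protein, so the genes of this family are usually expressed together and are among the most abundant messengers of growing cells. Most of their messengers start with a C followed by a run of pyrimidines, the 5′ terminal oligopyrimidine (TOP) tract, through which mTORC1 and LARP1 control their translation. The small subunit reads the messenger RNA, and the large subunit forms the peptide bond and holds the tunnel through which the new chain leaves. Several members also act outside the ribosome, such as RPL5 and RPL11, which with the 5S ribosomal RNA can bind MDM2 and stabilise p53.

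The TOP tract is visible at the annotated start of most members. RefSeq promoter windows (GRCh38.p14, 250 bases before to 50 after the start) matched 65 of the 80 members, and 46 of the 65 (70.8%) had a C followed by at least 4 bases that are C or T at the start itself on the coding strand. The same letters stood at the start of 5.14% of the 27305 genes with such a window. Genes with several annotated starts, RPS19 among them, were counted if any start had the tract. By window, 46 of the members' 81 had it, against 4.07% of all 35116 windows. The tracts were 5 to 19 bases long, with a median of 8. The following 20-base windows run from 5 bases before the start to 15 bases from it, 5′ to 3′ on the coding strand, with the tract of pyrimidines from the start in capitals. A tract was called only where the annotated start base is itself a C, so a run beginning a few bases away was not counted. RPS26, which has the smallest p-value, has no tract at its annotated start, but a run of pyrimidines follows shortly after it. The windows show 5 members that the later results turn on, then RPS26 and 3 measured paralog pairs.
RPS19 (chr19:41860250-41860269, plus strand): tcgttCCCTTTCCCCTggct
RPS16 (chr19:39435935-39435954, minus strand): gctttCCTTTTCCggttgcg
RPL18 (chr19:48619164-48619183, minus strand): gttctCTCTTTCCggacctg
RPLP0 (chr12:120201097-120201116, minus strand): gaggcCCTTCTCTCgccagg
RPS12 (chr6:132814564-132814583, plus strand): gaggcCTCTTTCCCTgccgc
RPS26 (chr12:56041913-56041932, plus strand): acctcgattttcttccgcca
RPS27 (chr1:153990757-153990776, plus strand): tcgctCCTTTCCggcggtga
RPS27L (chr15:63157463-63157482, minus strand): cgagcgcagatcgcttgcag
RPL26 (chr17:8383179-8383198, minus strand): tagttCTCTTCCCTTTTgcg
RPL26L1 (chr5:172958724-172958743, plus strand): gggtcggcgaacgaaacgcg
RPL22 (chr1:6199581-6199600, minus strand): acctcCCTTTCTaactccgc
RPL22L1 (chr3:170870181-170870200, minus strand): gcttcCTCTCTgctctcgcg
At the annotated start, RPS27L and RPL26L1 lack the tract that their partners RPS27 and RPL26 have, whereas RPL22L1 has one like RPL22. RPL7L1 also had none at its start. In the 300-base windows, on either strand, the letters CGGAAG, bound by ETS factors, were found for 63.1% of the 65 members against 22.6% of all genes with a window. GATGGCG, bound by YY1, was found for 27.7% against 5.11%, and TATAAA for 9.23% against 14%. TTTATNG, letters of the HOX group 9 proteins, was found for 6.15% against 11.9%, and none of these letters shows that a factor is bound.

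HOXD9 itself was measured at 26.6, 26.4 and 31.3 FPKM (fragments scaled by transcript length and by the fragments mapped in the library) in the LV-HOXD9 libraries, against 0, 0.0413 and 0.0309 FPKM in the LV-Vector libraries, as the labels imply. The tables hold no read counts, so the depth behind each value is unknown. Of 6 epithelial markers all were in the table, with a summed level of 954 to 978 FPKM in LV-HOXD9, against 802 to 909 FPKM in LV-Vector, mostly from keratins, while CDH1, which encodes E-cadherin, was at only 2.16 to 2.60 FPKM in LV-HOXD9, against 2.25 to 2.75 FPKM in LV-Vector. The log2 fold changes were 0.31 for KRT18, 0.21 for KRT19 and 0.14 for KRT8. They were -0.082 for EPCAM, -0.021 for CDH1 and -0.52 for CLDN4, and none of these 6 markers passed an adjusted p under 0.05 from limma. Of 9 fibroblast, leukocyte and endothelial markers, only COL1A1 and CD68 were in the table, the highest value being 2.32 FPKM. The FPKM of all genes summed to 256588 to 270501 in LV-HOXD9 and to 242093 to 257015 in LV-Vector, a mean 4.57% higher. Over all genes, the deviation of LV-HOXD9 replicate 3 from each gene's mean had a Spearman's rho of 0.659 with GC content (12054 genes, which are not independent), that of LV-Vector replicate 2 had a rho of -0.601, and those of the other libraries had -0.295 to 0.231.

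On the FPKM scale, ribosomal protein messengers were slightly more abundant with HOXD9 than with the empty vector, and no single member passed the test. The 80 genes summed to 10700.1, 10631 and 11086 FPKM in the LV-HOXD9 libraries, against 10156, 9597 and 10369 FPKM in the LV-Vector libraries. The groups did not overlap, and the mean sum was 7.62% higher in LV-HOXD9, beside 4.57% for the sum of all genes. Of the FPKM of all genes, the members took 4.13% ± 0.0275 in LV-HOXD9 and 4.01% ± 0.0413 in LV-Vector (SD, n = 3 libraries each). Bulk libraries cannot tell more RNA per cell from more cells of a kind.

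At an adjusted p under 0.05 from limma, fitted on log2(FPKM + 1) over all 12385 genes, 0 of 80 members differed, where 0.202% of all genes were called (0.0565% higher and 0.145% lower). At an unadjusted p under 0.05 from limma, 18 members (22.5%) were higher and 0 were lower in LV-HOXD9, where 7.12% of all genes were higher and 11.9% were lower. An ordinary linear model with no sharing of variances gave 21 higher at an unadjusted p and 0 at an adjusted p. The log2 fold change was above 0 for 75 members (93.8%), against 40.1% of all genes, and this share was 72.5% on a TPM scale and 63.8% after quantile normalization. The 3 LV-HOXD9 values all lay above the 3 LV-Vector values for 38 members (47.5%), against 10.9% of all genes, and below them for 0 members, against 17.5% of all genes. The median log2 fold change of the members was 0.11, and that of all genes was -0.044.

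The count of 18 rested on single libraries. It was 5 without LV-HOXD9 replicate 1, 6 without LV-HOXD9 replicate 3 and 3 without LV-Vector replicate 2, and 12 to 16 without any of the others. It was 6 on a TPM scale, 2 after quantile normalization and 33 after removal of trends with GC content and transcript length. The median of the members stayed above 0 in all 15 alternatives, with its lowest value, 0.034, after quantile normalization. On the TPM scale the median of all genes shifted to -0.11, and the members lay 0.16 above it, as they did on the FPKM scale. The members lay only 0.032 above the median of all genes after quantile normalization, and 0.081 above it without LV-HOXD9 replicate 3 together with LV-Vector replicate 2.

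**Figure D1:**
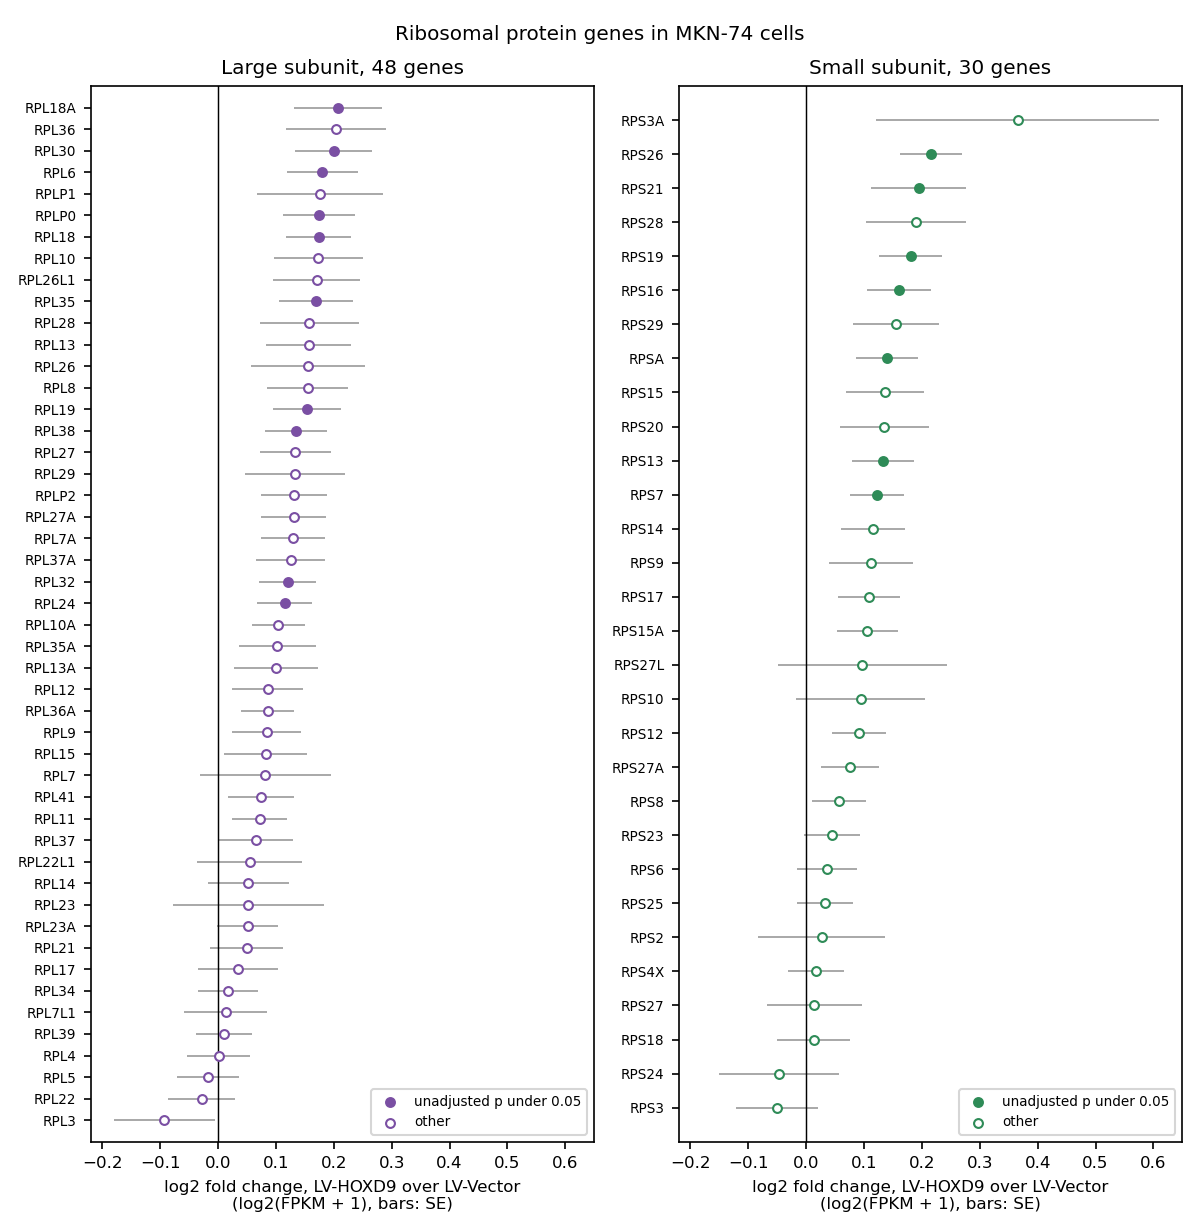
The log2 fold change of each member, LV-HOXD9 over LV-Vector on log2(FPKM + 1), is plotted with its SE from limma for 48 large-subunit and 30 small-subunit genes. Filled points are the 17 of these at an unadjusted p under 0.05, and 73 of the 78 points lie above 0 on this scale, a share that is smaller after quantile normalization, where 51 of all 80 members lie above 0.

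Other abundant messengers were also higher in LV-HOXD9 by a similar amount on the FPKM scale. The 546 other genes with a mean of at least 50 FPKM, a comparison added after the values were seen, had a median log2 fold change of 0.082, and 72.7% of them were above 0. At an unadjusted p under 0.05 from limma 28.8% of these were higher, beside 22.5% of the members, and 28 of the 546 were lower, beside 0 members. Their groups did not overlap, with LV-HOXD9 above, for 33.7%, and with LV-HOXD9 below for 37 genes, beside 0 members. After quantile normalization the median of these genes was 0 to 2 decimals, that of the members was 0.034, and 15% of the other genes and 2.5% of the members were higher at an unadjusted p.

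**Figure D2:**
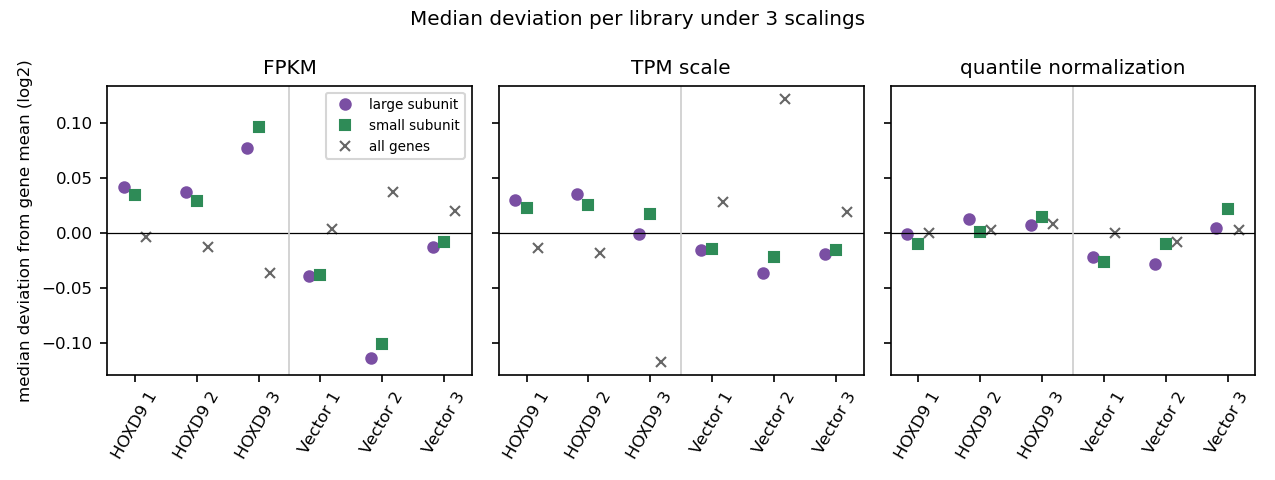
Each point is the median over genes of a library's deviation from the gene's mean of 6 libraries, on a log2 scale, for large-subunit genes, small-subunit genes and all genes, under FPKM, the TPM scale and quantile normalization. On FPKM the large-subunit medians run from 0.037 to 0.077 in LV-HOXD9 and from -0.11 to -0.012 in LV-Vector, and after quantile normalization the groups overlap for both subunits.

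The spread within each group followed the same pair of libraries. Over the large-subunit genes, the median deviation from the gene's mean was 0.042, 0.037 and 0.077 in the LV-HOXD9 libraries, against -0.039, -0.11 and -0.012 in the LV-Vector libraries. Over the small-subunit genes it was 0.035, 0.029 and 0.096 in LV-HOXD9, against -0.038, -0.10 and -0.0086 in LV-Vector. LV-HOXD9 replicate 3 was the highest library and LV-Vector replicate 2 the lowest for both subunits. Without this pair the median log2 fold change of the members was 0.061, with 70 members above 0, 4 higher and 0 lower at an unadjusted p from limma. The other genes at 50 FPKM or more then had a median of 0.058, with 64.1% above 0, beside 87.5% of the members. At an unadjusted p under 0.05 from limma, 22.9% of these other genes were higher, beside 5% of the members. Within the members, the deviation had rho = 0.462 with the GC content of the main transcript in LV-HOXD9 replicate 3, against -0.544 in LV-Vector replicate 2, and the log2 fold change had rho = 0.403 with it, beside 0.430 over all genes. With the trends with GC content and length removed, the median of the members was 0.12.

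On the FPKM scale the subunits had nearly the same median, and their difference was not tested. The median log2 fold change was 0.11 for the large and 0.11 for the small subunit, with 10 of 48 (20.8%) and 8 of 32 (25%) genes higher at an unadjusted p from limma, against 7.12% of all genes. The LV-HOXD9 values lay above the LV-Vector values without overlap for 23 (47.9%) and 15 (46.9%) genes, against 10.9% of all genes. After quantile normalization the medians were 0.041 and 0.011, a difference of 0.029, close to the 0.034 of all members. The summed FPKM of the large subunit was 1.13, 1.11 and 1.09 times that of the small subunit in the LV-HOXD9 libraries, against 1.12, 1.10 and 1.10 times in the LV-Vector libraries. Within each library, the median deviation of the large minus that of the small subunit was 0.0070, 0.0083 and -0.019 in LV-HOXD9, against -0.00082, -0.012 and -0.0038 in LV-Vector. These values overlapped between the groups, whose means differed by 0.0045. Each value was smaller in size than the median log2 fold change of 0.11 of either subunit.

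Among small-subunit genes, RPS26 had the smallest p-value. Its protein lies at the exit of the messenger channel, upstream of the start codon in an initiating ribosome. RPS26 (chr12:56435637-56438459 in GRCh37) was at 127, 126 and 134 FPKM in LV-HOXD9, against 109.9, 107 and 115 FPKM in LV-Vector. The groups did not overlap, and the log2 fold change was 0.22 (SE 0.053, unadjusted p = 0.0049 and adjusted p = 0.154 from limma). RPS19, needed for the maturation of the 18S ribosomal RNA and often mutated in Diamond-Blackfan anaemia, was at 209.6, 204 and 217 FPKM in LV-HOXD9, against 193, 177 and 187 FPKM in LV-Vector. RPS16, whose tail reaches the tRNA in the P site, was at 141, 141 and 148 FPKM in LV-HOXD9, against 129.8, 122 and 133 FPKM in LV-Vector. For all of these the lowest LV-HOXD9 library was above the highest LV-Vector library, and LV-Vector replicate 2 was the lowest of the 6. The log2 fold changes were 0.18 for RPS19 and 0.16 for RPS16, with adjusted p-values of 0.188 and 0.214 from limma. An exact two-sided permutation test of the 6 libraries gave p = 0.10 for each of the 3 genes, the smallest it can give with 3 libraries per group.

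Among large-subunit genes, RPL18 was first by p-value, with 121, 117 and 125 FPKM in LV-HOXD9, against 109.7, 102 and 110.0 FPKM in LV-Vector. RPL30, whose yeast homologue binds its own pre-messenger RNA, was at 77.2, 76.6 and 70.8 FPKM in LV-HOXD9, against 69.4, 61.1 and 64.9 FPKM in LV-Vector. RPL6 was at 79.5, 76.3 and 85.7 FPKM in LV-HOXD9, against 73.4, 68.5 and 70.7 FPKM in LV-Vector. The groups did not overlap for any of the 3, and RPL30 differed from the others in that LV-HOXD9 replicate 3 was its lowest LV-HOXD9 library. The log2 fold changes were 0.17, 0.20 and 0.18 (adjusted p = 0.204, 0.209 and 0.215 from limma).

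RPLP0, RPLP1 and RPLP2 form the stalk of the large subunit, which recruits the GTPases of translation. RPLP0 was at 116.0, 108 and 122 FPKM in LV-HOXD9, against 103, 98.8 and 105 FPKM in LV-Vector, without overlap (log2 fold change 0.17, adjusted p = 0.220 from limma). RPLP2 averaged 154 ± 2.99 FPKM in LV-HOXD9, against 141 ± 8.11 FPKM in LV-Vector, also without overlap (log2 fold change 0.13). RPLP1 averaged 223 ± 4.59 FPKM in LV-HOXD9, against 199 ± 29.8 FPKM in LV-Vector, and its groups overlapped because LV-Vector replicate 1 was at 219 FPKM, whereas LV-Vector replicate 2 was at 165 FPKM. All of the 3 stalk genes stayed above 0 under every alternative.

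**Figure D3:**
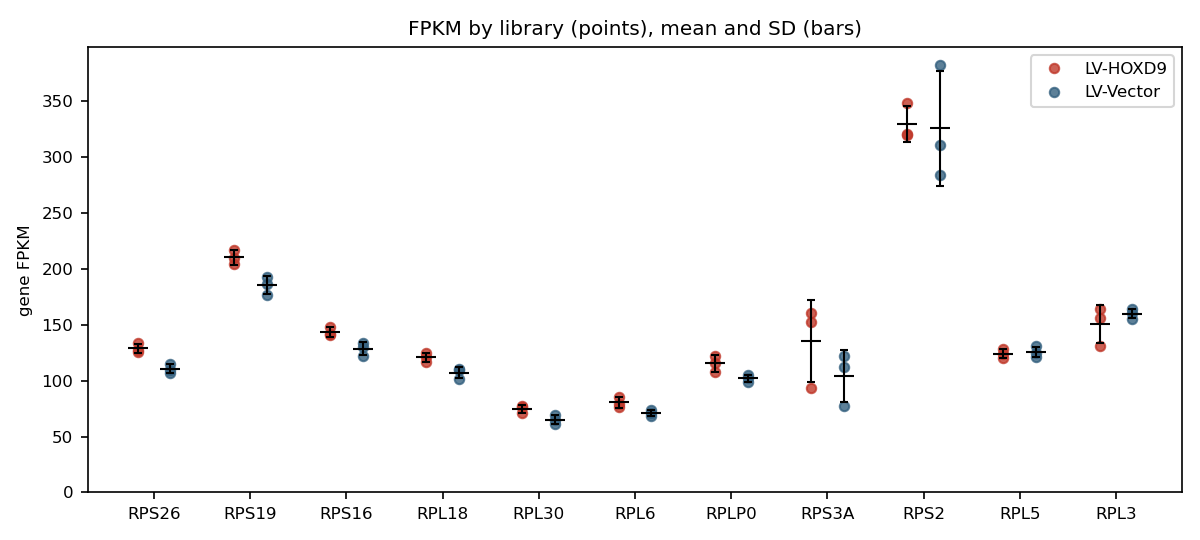
Gene FPKM of 11 members is plotted by library, LV-HOXD9 left of LV-Vector, with the mean and SD of 3 libraries as bars. The 7 genes at the left do not overlap between groups, whereas RPS3A, RPS2, RPL5 and RPL3 do, and RPS2 reaches 382 FPKM in 1 LV-Vector library.

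The p53-linked proteins RPL5 and RPL11 and the kinase substrate RPS6 had values close to each other in both groups. RPL5 was at 128, 124 and 119.95 FPKM in LV-HOXD9, against 121, 125 and 131 FPKM in LV-Vector, with a log2 fold change of -0.017. RPL11 averaged 184 ± 5.23 FPKM in LV-HOXD9, against 175 ± 3.29 FPKM in LV-Vector (log2 fold change 0.072, adjusted p = 0.418 from limma), and its sign turned after quantile normalization. RPS6, the main substrate of the S6 kinases, averaged 196 ± 7.70 FPKM in LV-HOXD9, against 191 ± 5.27 FPKM in LV-Vector. Its log2 fold change was 0.036, with a sign that turned on the TPM scale and after quantile normalization. Only 5 members had a log2 fold change below 0, the others being RPL3 at -0.093, RPS3 at -0.050, RPS24 at -0.046 and RPL22 at -0.028. RPL3, a protein of the peptidyl transferase centre, was at 164, 156 and 131 FPKM in LV-HOXD9, against 164, 155 and 160.1 FPKM in LV-Vector. Its lower mean came from LV-HOXD9 replicate 3 alone. Of 8 genes whose proteins line or border the peptide exit tunnel, 7 (87.5%) were above 0, with a median of 0.043. Among all members 93.8% were above 0, with a median of 0.11. RPL35 (0.17) and RPL19 (0.15), both of which border the tunnel's opening, were at an unadjusted p under 0.05 from limma. RPL4, which forms the narrow part of the tunnel, had a log2 fold change of 0.0013 at the gene level. Its leading transcript took 92.7% of the gene's summed transcript FPKM, and was named after its values were seen. That transcript was at 49.6, 59.1 and 64.8 FPKM in LV-HOXD9, against 45.1, 43.8 and 49.5 FPKM in LV-Vector. Its log2 fold change was 0.31 (unadjusted p = 0.042 and adjusted p = 0.688 from limma).

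The members spanned a wide range of levels. Among the highest of the small subunit were RPS12 at 526 and RPS2 at 327 FPKM over the 6 libraries, and the highest of the large subunit were RPL13A at 369, RPL41 at 300.6 and RPL7A at 283 FPKM. RPS12 was at 537, 543 and 549 FPKM in LV-HOXD9, against 518, 492 and 519 FPKM in LV-Vector. These groups did not overlap, yet the log2 fold change was only 0.091 and it turned to -0.024 after quantile normalization. RPL7A averaged 296 ± 9.63 FPKM in LV-HOXD9, against 270.4 ± 12.3 FPKM in LV-Vector, without overlap. RPL13A, which in human cells also takes part in the interferon-gamma-activated inhibitor of translation, averaged 382 ± 26.3 FPKM in LV-HOXD9, against 356 ± 22.8 FPKM in LV-Vector. RPL41, the smallest ribosomal protein, averaged 308 ± 5.31 FPKM in LV-HOXD9, against 293 ± 16.5 FPKM in LV-Vector. Both pairs of groups overlapped, and RPL7A, RPL13A and RPL41 also turned below 0 after quantile normalization.

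The lowest members were paralogs and genes with long models. RPL22L1 averaged 5.84 ± 0.296 FPKM in LV-HOXD9, against 5.61 ± 0.624 FPKM in LV-Vector, whereas RPL22, which represses it in mice, averaged 41.1 ± 1.57 FPKM in LV-HOXD9, against 42.0 ± 1.61 FPKM in LV-Vector. RPL7L1 averaged 8.31 ± 0.527 FPKM in LV-HOXD9, against 8.22 ± 0.404 FPKM in LV-Vector, whereas RPL7 averaged 87.6 ± 14.2 FPKM in LV-HOXD9, against 82.0 ± 0.952 FPKM in LV-Vector. Neither gene of these pairs differed by more than its spread. RPL26L1 averaged 17.6 ± 0.456 FPKM in LV-HOXD9, against 15.5 ± 1.37 FPKM in LV-Vector without overlap (log2 fold change 0.17), and RPL26 averaged 66.0 ± 9.30 FPKM in LV-HOXD9, against 58.8 ± 0.913 FPKM in LV-Vector with overlap (0.16). RPS27L, a p53 target in human cells, averaged 7.32 ± 1.03 FPKM in LV-HOXD9, against 6.81 ± 1.24 FPKM in LV-Vector, whereas RPS27 averaged 175 ± 4.99 FPKM in LV-HOXD9, against 174 ± 19.2 FPKM in LV-Vector. In each of the 4 pairs the L-named paralog was the lower gene in every library. RPS29 (log2 fold change 0.16) and RPS15A (0.11) were the other low members of the small subunit, at 22.1 and 34.1 FPKM, and neither overlapped between groups.

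Levels between members depend on how a gene's length was taken. The median level was 120 FPKM for small-subunit and 92.0 FPKM for large-subunit genes in the gene table, and 427 FPKM and 292 FPKM when the FPKM of a gene's listed transcripts was summed. For 61.3% of the 80 members, and 62.8% of 12005 genes, the gene value lay within 10% of the transcripts' FPKM weighted by length and divided by the length of all exons of the gene together. RPS29 had 22.1 FPKM as a gene but 620 FPKM as a sum of transcripts, since its leading transcript has 296 bases and its exons together span 9845 bases. RPS19 had 198 FPKM as a gene and 1012 FPKM as a sum, the highest sum of all members. RPS12, with 1 listed transcript, had 526 and 530 FPKM, and RPL4 alone had a lower sum, 56.0 FPKM, than its gene value of 125 FPKM. The 2 measures ranked the members with rho = 0.773 over 80 genes, and gene FPKM was lower where all exons together were longer (rho = -0.618). Both are descriptions over genes that share libraries. The order of levels given above is therefore that of the gene table only. How far comparisons between groups within a gene depend on length alone was not tested. Removing trends with GC content and length together moved the count of higher members at an unadjusted p from limma from 18 to 33.

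**Figure D4:**
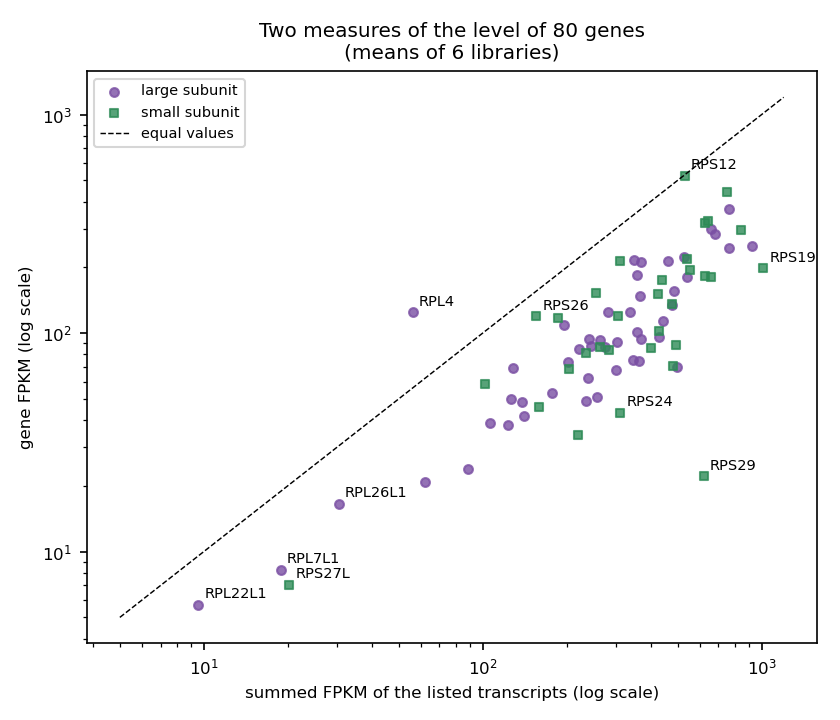
Mean gene FPKM of 6 libraries is plotted against the summed FPKM of the gene's listed transcripts for 80 members, both on log scales, with a dashed line where the values are equal. RPS29 lies far below the line at 22.1 and 620 FPKM, RPS12 lies on it, and RPL4 is the only labelled gene clearly above it.

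In the transcript table, 463 transcripts belonged to the members, and 0 of them passed an adjusted p under 0.05 from limma, where 0.0992% of all 40304 transcripts were called. At an unadjusted p under 0.05 from limma 34 (7.34%) were higher, against 3.22% of all transcripts, and 3 (0.648%) were lower, against 3.77%. The leading transcript took a median of 66.7% of a gene's summed transcript FPKM. It took at least 80% in 28 members and under 50% in 26, and RPS12, RPS25 and RPS28 had a single listed transcript. The smallest leading shares were those of RPL13-206 at 26.2%, RPL15-204 at 31.2% and RPL26L1-205 at 31.4%. The share of RPL26L1-205 was 35.3%, 0% and 57.3% in the LV-HOXD9 libraries, against 42.4%, 0% and 53.6% in the LV-Vector libraries, so it varied far more within groups than between them. RPS16-208 had the smallest p-value, at 24.7, 22.1 and 21.2 FPKM in LV-HOXD9, against 14.5, 15.9 and 14.2 FPKM in LV-Vector (log2 fold change 0.57, adjusted p = 0.384 from limma). RPLP0-203 went the other way, at 15.3, 12.9 and 18.4 FPKM in LV-HOXD9, against 29.2, 34.6 and 26.0 FPKM in LV-Vector (log2 fold change -0.91, adjusted p = 0.390 from limma). Both are minor transcripts of their genes and neither overlapped between groups. RPS16-208 and RPLP0-203 were named after their values were seen.

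The members with the largest spread within groups, chosen after the values were seen, were RPS3A, RPS27L, RPL23, RPS10, RPS2 and RPL7. RPS3A, a protein of the platform of the small subunit, had the largest log2 fold change of all members, 0.37 (SE 0.24, adjusted p = 0.426 from limma). It was at 93.5, 161 and 152 FPKM in LV-HOXD9, against 122, 112 and 77.6 FPKM in LV-Vector. The groups overlapped, and the pooled coefficient of variation was 24.8%. Its transcript RPS3A-201 was at 98.7, 127 and 114 FPKM in LV-HOXD9, against 250.1, 31.1 and 146 FPKM in LV-Vector. RPS3A-210 was at 15.6, 264 and 258 FPKM in LV-HOXD9, against 0, 176 and 12.8 FPKM in LV-Vector. RPS3A-213 was at 82.6, 0 and 0 FPKM in LV-HOXD9, against 4.20, 84.1 and 1.77 FPKM in LV-Vector. The transcript that leads thus changed from library to library within both groups. RPL26 had the same leading transcript in every library, LV-HOXD9 replicate 1 was the highest library at 76.0 FPKM, and the minor transcript RPL26-206 was at 113, 45.5 and 13.5 FPKM in LV-HOXD9, against 6.53, 24.0 and 23.9 FPKM in LV-Vector. RPS10 had its highest value, 265 FPKM, in LV-HOXD9 replicate 3, RPS2 its highest, 382 FPKM, in LV-Vector replicate 3, and RPL23 its lowest, 32.6 FPKM, in LV-Vector replicate 1. RPL7 was at 101, 88.4 and 73.0 FPKM in LV-HOXD9, against 82.2, 81.0 and 82.9 FPKM in LV-Vector. None of these separated the groups.

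**Figure D5:**
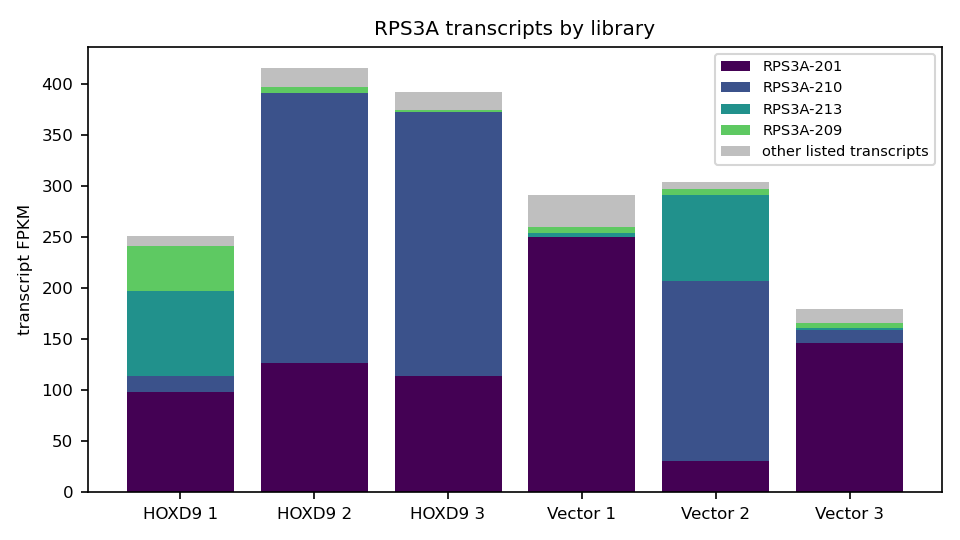
Stacked bars give the FPKM of the RPS3A transcripts in each of the 6 libraries, LV-HOXD9 left of LV-Vector. RPS3A-210 makes up most of LV-HOXD9 replicates 2 and 3 (264 and 258 FPKM) and of LV-Vector replicate 2 (176 FPKM), whereas RPS3A-201 leads in LV-Vector replicates 1 and 3.

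Medians were close to each other across features of the genes. The median log2 fold change was 0.11 for the 46 members with a pyrimidine tract at an annotated start. It was 0.12 for the 19 without one there and 0.11 for the 15 with no matched window. It was 0.096 for the 28 members that host a small nucleolar RNA in GENCODE release 29, 19 of the large and 9 of the small subunit, and 0.11 for the 52 that host none. Across the members the log2 fold change had rho = 0.115 with the mean FPKM and -0.120 with the length of the leading transcript. Ribosomal protein genes have many processed pseudogenes of near-identical sequence, and how reads with several alignments were shared is not given in the sources used here. Values of RPS10, RPL17 and RPL36A can also hold reads of the read-through genes that overlap them.

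Of the ribosomal proteins whose genes have other names, FAU, RACK1 and RPL36AL had log2 fold changes above 0. FAU, which encodes a ubiquitin-like protein fused to RPS30, was at 66.5, 69.9 and 74.4 FPKM in LV-HOXD9, against 59.8, 52.7 and 60.3 FPKM in LV-Vector (log2 fold change 0.28, adjusted p = 0.165 from limma). Its groups did not overlap. RPS27A, a ubiquitin fusion within the symbol rule, had a log2 fold change of 0.076. RACK1, the scaffold at the head of the small subunit (0.13), and RPL36AL, a paralog of RPL36A (0.055), were not at an unadjusted p under 0.05.

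The genes that build and regulate ribosomes gave 0 calls at an adjusted p under 0.05 from limma in each list examined. At an unadjusted p under 0.05, 7.12% of all genes were higher and 11.9% were lower, and the counts of each list stand against these shares. The list counts are given on the FPKM scale only, on which 28.8% of the other genes at 50 FPKM or more were also higher. The same count for the members fell from 18 to 6 on the TPM scale and to 2 after quantile normalization. For assembly of the small subunit, 11 of 51 genes (21.6%) were higher and 0 lower at an unadjusted p from limma, led by NOP56 (0.22) and FBL (0.18), of the box C/D particles that methylate ribosomal RNA, and by RRP9 (0.26) and RRP7A (0.24) of the processome. For assembly of the large subunit, 13 of 56 (23.2%) were higher and 3 lower, led by NOC2L (0.30), BOP1 (0.32), MRTO4 (0.29) and PES1 (0.28), and BOP1 and PES1 belong to the same complex. Medians were 0.042 and 0.071, so both lists held many genes below 0 beside those that were higher. RSL24D1 had the lowest log2 fold change of the 3 lower genes, -0.43, at 14.5, 14.9 and 11.9 FPKM in LV-HOXD9, against 16.3, 20.7 and 19.9 FPKM in LV-Vector.

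Of 12 chaperones and importers of ribosomal proteins, 2 (16.7%) were higher and 1 lower at an unadjusted p from limma. IPO4, an importin, was at 43.4, 40.9 and 45.4 FPKM in LV-HOXD9, against 35.4, 35.2 and 34.2 FPKM in LV-Vector, and GRWD1, a histone and ribosome assembly factor, was at 30.4, 30.0 and 33.8 FPKM in LV-HOXD9, against 26.1, 24.1 and 24.9 FPKM in LV-Vector. Of 35 subunits and factors of RNA polymerases I and III, 1 was higher (2.86%, against 7.12% of all genes) and 3 were lower, against 11.9% of all genes. The higher was POLR3K, a small subunit of polymerase III, at 14.1, 13.0 and 13.0 FPKM in LV-HOXD9, against 10.5, 9.78 and 9.65 FPKM in LV-Vector (log2 fold change 0.39, adjusted p = 0.0905 from limma). The lower genes were TTF1 (-0.31), which ends polymerase I transcription, POLR3GL (-0.30) and GTF3C3 (-0.32).

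Other messengers listed as TOP messengers had a median near 0, and whether each has a tract at its start was not tested. Of 18 genes listed as elongation factors and other TOP messengers, 1 was higher and 1 lower at an unadjusted p from limma. The median log2 fold change of this list was 0.0074. EIF5A, the hypusinated elongation factor, averaged 164 ± 2.88 FPKM in LV-HOXD9, against 140.2 ± 6.60 FPKM in LV-Vector, and EIF4B, an initiation factor, averaged 59.8 ± 1.03 FPKM in LV-HOXD9, against 66.5 ± 2.72 FPKM in LV-Vector. The median of the list was -0.057 on the TPM scale and -0.058 after quantile normalization, scalings under which the median of the members stayed above 0. The median of all genes was -0.11 on the TPM scale, below that of the list. After quantile normalization it was 0.0018, above that of the list. Of 13 regulators of TOP messengers, 0 were higher, against 7.12% of all genes, and 3 lower, against 11.9%, namely RPS6KB1 (-0.34), which encodes S6 kinase 1, TSC1 (-0.19), an inhibitor of mTORC1, and TIA1 (-0.32), an RNA-binding protein. No difference between this list and the members was tested.

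Of 6 genes of nucleolar stress and p53, 2 were higher at an unadjusted p from limma. CDKN1A, the cell-cycle inhibitor p21, averaged 78.4 ± 5.23 FPKM in LV-HOXD9, against 63.2 ± 3.97 FPKM in LV-Vector (log2 fold change 0.31, adjusted p = 0.148 from limma). MYC, a transcription factor that drives ribosome production, was at 5.39, 9.55 and 3.03 FPKM in LV-HOXD9, against 2.63, 2.04 and 1.99 FPKM in LV-Vector (log2 fold change 1.01, adjusted p = 0.198 from limma). The MYC groups did not overlap, but its LV-HOXD9 libraries differed from each other by more than any LV-Vector library did from another. Of 78 genes of the mitochondrial ribosome, 15 (19.2%) were higher, against 7.12% of all genes, and 1 was lower, against 11.9%. The median was 0.084, with 61 genes above 0. The first by p-value were MRPL18 (0.27), MRPS12 (0.28), MRPS34 (0.31) and MRPL57 (0.21), with adjusted p-values of 0.132 to 0.172 from limma.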

How the data were processed

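FPKM values of 12385 genes and 40304 transcripts were used as deposited. The authors made the FPKM values with Ballgown, per the paper's methods, and the submitters' notes name cutadapt, FastQC, HISAT2, StringTie and GRCh37, with versions not given in the sources used here. Nothing is said of scaling between libraries. For each gene the higher of both group means was 0.500 FPKM or more. A gene that fits the symbol pattern may be outside the list of members, and the values of such a gene, and of a few that the naming rule below would give, are not reported here. Counts and medians cover all 80 members.

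Values were compared as log2(FPKM + 1), which understates changes of low genes, with limma 3.58.1 (R 4.3.3; variances with a trend on the mean) over all genes or transcripts, with Benjamini-Hochberg adjustment and a threshold of 0.05. A minimum group mean of 0.1 FPKM removed 0 genes. Single genes were also compared by exact permutation of the 6 libraries, for which p = 0.10 is the smallest value. Lists were described by counts and medians, without a set test. The members and lists were chosen with earlier results of these data known. Named were the 4 genes of each subunit with the smallest p, the 3 highest and 3 lowest by FPKM, measured paralog pairs, the stalk proteins, RPL5, RPL11, RPS6, the ribosomal proteins with other names, up to 4 genes of each related list by p, and the members with the 3 smallest and 3 largest leading transcript shares. Summed transcript levels, the comparison with other genes at 50 FPKM or more, and the members with the largest spread were added after the values were seen. Transcript lengths, GC content (97.3% of genes) and small nucleolar RNA hosts came from GENCODE release 29, and start windows from RefSeq (GRCh38.p14). Locations of genes are those of the files (GRCh37).

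Alternatives were other minimum levels, adding 0.1 in place of 1, a TPM scale (each library scaled to 1000000), quantile normalization, an ordinary linear model, a replicate block, removal of GC and length trends by loess (span 0.5), and leaving out libraries. The scripts were tested on simulated data. Python 3.11.15 with pandas 2.3.3 and matplotlib 3.10.9 were used.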

Additional observations from a re-analysis of the deposited data

How the results depend on the processing

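The count of members at an adjusted p under 0.05 from limma was 0 in all 15 alternatives, and the lowest adjusted p of any member was 0.0699, for RPS26 after the GC and length trend was removed. The count of 18 higher members at an unadjusted p was 6 on the TPM scale, 2 after quantile normalization, 33 with the GC and length trend removed, 4 without the pair of LV-HOXD9 replicate 3 with LV-Vector replicate 2, and 3 to 16 without single libraries. The large-subunit median log2 fold change was 0.046 on the TPM scale, 0.041 after quantile normalization and 0.064 without that pair, and the small-subunit median was 0.048, 0.011 and 0.059. The large minus small difference, -0.0013, was 0.029 after quantile normalization, 0.016 with the trend removed and -0.012 to 0.023 without single libraries. The members' share of summed FPKM was 0.118 percentage points higher in LV-HOXD9, and 0.284 points higher as a share of protein-coding FPKM. The cause of these shifts was not tested. After removing group means, libraries with the same replicate number had r of -0.173, 0.168 and -0.0064. These values cannot decide whether the numbers pair the samples, since no r of differently numbered libraries stands beside them. With the replicate block 17 members were higher at an unadjusted p and 0 passed adjustment.

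Of 30 named members, 16 changed sign in 42 of 450 values, none of them past adjustment. On the TPM scale RPL23 was at -0.010, RPL7L1 at -0.048, RPS2 at -0.037, RPS27 at -0.050 and RPS6 at -0.028. After quantile normalization RPL11 was at -0.045, RPL13A at -0.041, RPL41 at -0.044, RPL7A at -0.018, RPS10 at -0.031, RPS12 at -0.024, RPS2 at -0.076, RPS27 at -0.11 and RPS6 at -0.10. With the trend removed RPL22 was at 0.081, RPL5 at 0.032 and RPS2 at -0.043. Without that pair RPL13A was at -0.0090, RPL22 at 0.014, RPL5 at 0.0014, RPL7L1 at -0.031, RPS10 at -0.019, RPS2 at -0.11, RPS27 at -0.0054 and RPS27L at -0.066. Without single libraries the lowest and highest values were -0.023 and 0.11 for RPL22L1, -0.053 and 0.17 for RPL23, -0.042 and 0.013 for RPL5, -0.029 and 0.21 for RPL7, -0.033 and 0.044 for RPL7L1, -0.024 and 0.16 for RPS10, -0.066 and 0.15 for RPS2, -0.047 and 0.10 for RPS27, and -0.042 and 0.20 for RPS27L.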
